A study of Mus musculus with 2 samples.

Results

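The genes described here are 36 genes for non-collagen proteins of the extracellular matrix: glycoproteins, proteoglycans, elastic fibre proteins and the enzymes that cross-link elastin and collagen. They were matched by gene symbol in the deposited tables, and all 36 were found among the 55536 annotated genes. The tables come from total RNA sequencing of the hearts of male mice aged 10 days. They were of the strain B6CASTF1/J, a cross between B6 laboratory mice and wild-derived CAST mice studied in its first generation, with no further allele and no treatment named in the labels. Whole heart was used, and each library was made from 300 ng of RNA, was reduced in ribosomal RNA, kept strand and received ERCC control RNAs. There were 2 libraries in 1 group, numbered replicate 2 and replicate 1. Each carries its own male's number in the labels while both give a single donor record, so the spread given here is that between these 2 samples and may be technical. The design has a single group and so no comparison between conditions, and no test across animals could be made: an exact 2-sided sign-flip test over 2 libraries cannot go below 0.5.

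The matrix of the heart is laid down mainly by fibroblasts, smooth muscle cells and the cells of valves and vessels, and it carries load, stores growth factors and guides cell movement. Elastic fibres form when tropoelastin is deposited on a scaffold of fibrillin microfibrils with the help of fibulins, and lysyl oxidases then cross-link it. Small leucine-rich proteoglycans bind collagen fibrils and set their spacing, matricellular proteins act on cells rather than as scaffold, and perlecan, agrin and the nidogens belong to basement membranes, including those that wrap each heart muscle cell and capillary.

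The libraries were of like depth, with a total expected count of 37907585 in replicate 2 and 38851514 in replicate 1. Expected counts are read counts in which a read that fits several genes is divided among them. Levels are given as TPM, the share of a transcript in a library on a scale common to all libraries, which is corrected for transcript length and can be set between genes within a library. Heart muscle genes were abundant in both libraries, with ventricular Myl2 at 7485 and 7897 TPM in replicate 2 and replicate 1. The libraries were not alike in some tissue markers: the adipocyte markers summed to 31.7 TPM in replicate 2 and 437 TPM in replicate 1, and the atrial muscle markers to 279 TPM in replicate 2 and 1515 TPM in replicate 1.

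Sequences are shown for the cassette exons of Postn, whose use differed between transcripts, and for the promoters of Postn and Hspg2. Postn encodes periostin, a matricellular protein of fibroblasts and valves whose messenger RNA is spliced in several ways near its 3′ end. Exon 17 of Postn spans chr3:54380412-54380492 and exon 21 spans chr3:54385671-54385754, both on the plus strand of mm10 and both in the coding region. They hold 81 and 84 bases, which is 27 and 28 codons, so that leaving either out keeps the reading frame. Exons are numbered along the annotated GENCODE M21 transcript that holds both, and the cassette is in capitals between 20 bases of each neighbouring exon.
Postn exon 17: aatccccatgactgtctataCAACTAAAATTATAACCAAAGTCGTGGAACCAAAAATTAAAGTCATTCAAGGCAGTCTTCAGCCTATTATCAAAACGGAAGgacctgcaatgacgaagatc
Postn exon 21: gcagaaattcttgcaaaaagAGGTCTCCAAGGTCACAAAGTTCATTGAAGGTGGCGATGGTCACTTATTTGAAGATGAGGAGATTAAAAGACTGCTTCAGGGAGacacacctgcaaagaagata
The base composition of the pair differed, with G and C at 34.6% of exon 17 and 44.0% of exon 21.

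Of the 36 members, 23 had an entry in the RefSeq promoter table (build GRCm38.p6). The stretches before the start of Postn, at chr3:54360857-54361106, and of Hspg2, at chr4:137468553-137468768, both on the plus strand, are shown because they hold different motifs. The genes were also picked for lying on different sides of the ratio between the libraries described further on. The side of Hspg2 depended on the scaling, and whether motifs go with that ratio was not tested. Capitals mark TATAAA in Postn and GGGCGG in Hspg2, and the Hspg2 stretch ends where the GENCODE transcript begins.
Postn promoter: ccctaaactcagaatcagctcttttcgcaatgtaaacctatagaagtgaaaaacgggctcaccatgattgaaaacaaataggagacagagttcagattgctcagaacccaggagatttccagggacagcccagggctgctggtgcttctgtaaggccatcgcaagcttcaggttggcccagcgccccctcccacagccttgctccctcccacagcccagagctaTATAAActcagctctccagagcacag
Hspg2 promoter: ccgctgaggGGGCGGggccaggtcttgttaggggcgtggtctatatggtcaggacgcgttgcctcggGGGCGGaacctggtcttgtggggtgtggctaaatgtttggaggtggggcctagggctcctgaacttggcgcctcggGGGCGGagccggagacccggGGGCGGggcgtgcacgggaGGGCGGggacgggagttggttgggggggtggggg
The Postn stretch held 1 TATAAA, which began 26 bases before the start, and no GGGCGG. The Hspg2 stretch held 5 GGGCGG and no TATAAA. Searched on both strands in the 250 bases before the start, TATAAA was found in 5 of the 23 members (Ogn, Postn, Thbs2, Tnc and Vtn), which is 21.7%, against 12.4% of the 32851 promoters in the table. GGGCGG was found in 11 of the 23, which is 47.8%, against 32.7% of all promoters, and CANNTG in 15 of the 23, which is 65.2%, against 66.2% of all. For each member only the entry nearest its GENCODE start was used, while all entries in the table were counted without such a choice. The members and all promoters are thus not like sets. None of the 3 motifs contains another, and a match is a description of these letters only.

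Nearly all of the genes were measured well. At least 1 TPM in both libraries was found for 35 of the 36, the exception being Hapln1, and the 36 summed to 2676 ± 700 TPM (SD, n = 2), with 2181 TPM in replicate 2 and 3171 TPM in replicate 1. They took 0.739% of all expected counts in replicate 2 and 0.935% in replicate 1. The median member had 25.5 TPM in replicate 2 and 37.3 TPM in replicate 1. By mean TPM, 8 members were above 100, 20 lay between 10 and 100, 7 between 1 and 10, and 1 below 1. The 6 highest, Sparc, Eln, Hspg2, Postn, Dcn and Sparcl1, made up 60.5% of the members' TPM in replicate 2 and 61.1% in replicate 1. In the order of mean TPM, the ranges over the 2 libraries overlapped for 31 of 35 neighbouring pairs. The 4 that did not were Sparc above Eln, Nid1 above Fbln2, Thbs1 above Efemp2 and Efemp1 above Hapln1, so the rank of most members against the next one is not separated by these libraries.

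**Figure D1:**
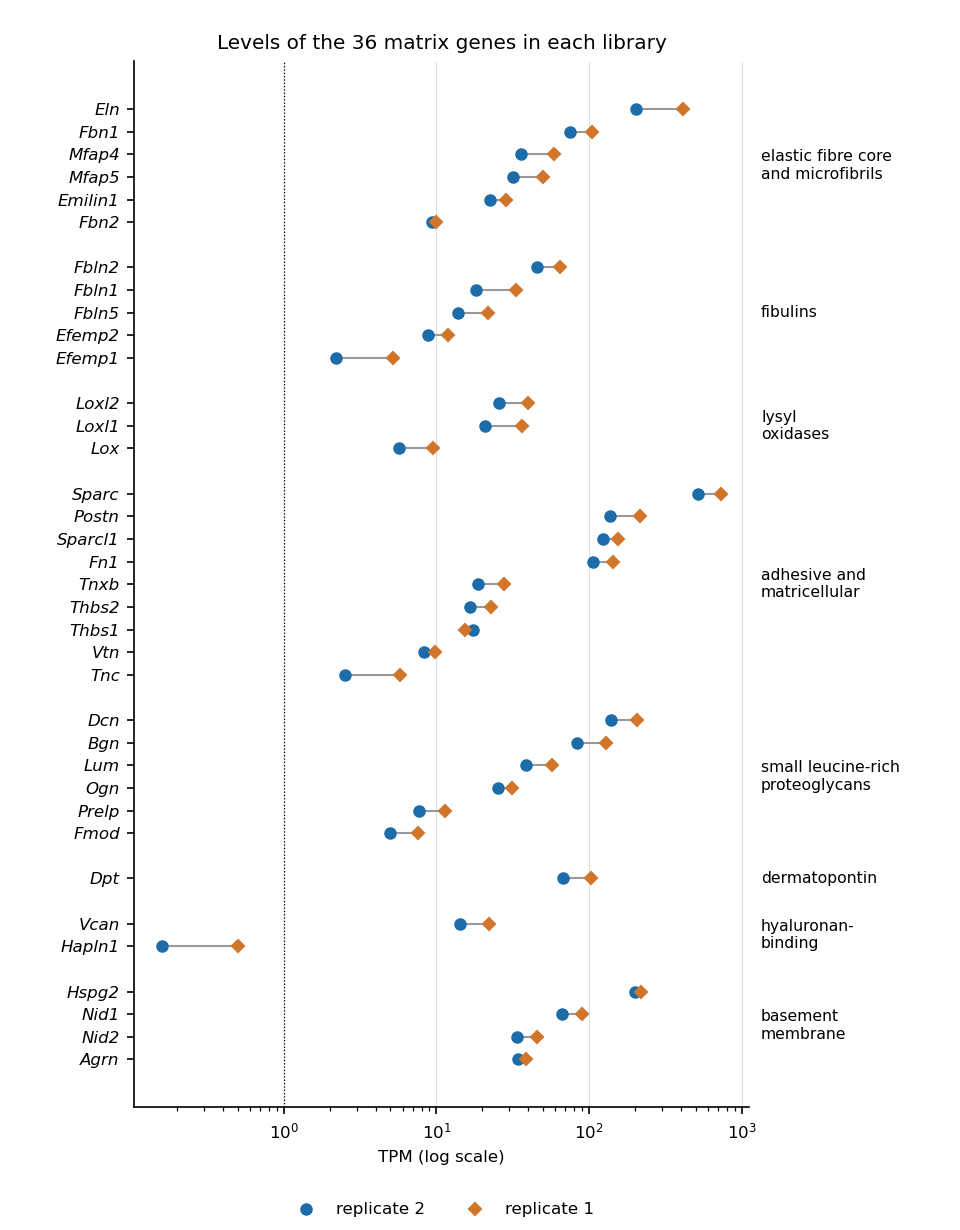
Level of each of the 36 genes in TPM on a log scale, grouped by role, with a circle for replicate 2 and a diamond for replicate 1 joined by a line; the dotted line marks 1 TPM. Sparc is highest at 517 and 731 TPM, Hapln1 is the only gene under 1 TPM in both libraries, and the circle lies to the right of the diamond only for Thbs1.

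Among the elastic fibre genes, Eln, which encodes tropoelastin, was by far the highest, followed by Fbn1, the main fibrillin of microfibrils after birth. Eln had 202 TPM in replicate 2 and 410 TPM in replicate 1, on 21891 and 42225 expected counts in the same order of libraries. It held 53.7% of the TPM of the 6 elastic fibre core and microfibril genes in replicate 2 and 61.9% in replicate 1. Fbn1 had 74.9 TPM in replicate 2 and 104 TPM in replicate 1. Fbn2, the fibrillin known for its high level in the embryo, had 9.30 TPM in replicate 2 and 9.99 TPM in replicate 1, and these values nearly met. The Fbn1 level stood above the Fbn2 level by 3.00 on the log2 scale in replicate 2 and 3.37 in replicate 1 (mean 3.18 ± 0.26, SD, n = 2, log2 of TPM + 0.1). Mfap4 and Mfap5, which bind microfibrils and come from unrelated families, had 35.8 and 31.7 TPM in replicate 2 and 59.3 and 50.1 TPM in replicate 1. The level of Mfap5 depended on the quantification, since the other deposited one gave 57.1 TPM in replicate 2 and 84.6 TPM in replicate 1, above Mfap4 at 40.8 and 63.9 TPM in those libraries. Emilin1, a glycoprotein at the surface of elastic fibres, had 22.3 TPM in replicate 2 and 28.6 TPM in replicate 1.

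The fibulins, a family of secreted glycoproteins that link elastic fibres and basement membranes to cells, were led by Fbln2. Fbln2 had 45.5 TPM in replicate 2 and 64.3 TPM in replicate 1, which was 51.4% and 47.1% of the TPM of the 5 fibulins among the members. Fbln1 had 18.2 TPM in replicate 2 and 33.2 TPM in replicate 1. The genes needed for elastic fibre assembly in mice, Fbln5 and Efemp2 (fibulin-4), had 13.9 and 8.81 TPM in replicate 2 and 21.8 and 11.96 TPM in replicate 1. Efemp1 (fibulin-3) was the lowest of the 5, with 2.19 TPM on 136 counts in replicate 2 and 5.21 TPM on 305 counts in replicate 1. Fbln7, outside the members, had 0.33 TPM in replicate 2 and 0.44 TPM in replicate 1. No range of a fibulin overlapped between Fbln2 and the other 4, while those of Fbln1 and Fbln5 did.

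All 3 lysyl oxidases, the copper enzymes that cross-link elastin and collagen, were detected, and Lox itself was the lowest of them. Loxl2 had 25.6 TPM in replicate 2 and 39.95 TPM in replicate 1, and Loxl1, the family member tied to elastic fibres in mice, had 20.9 TPM in replicate 2 and 36.2 TPM in replicate 1. Lox had 5.71 TPM in replicate 2 and 9.56 TPM in replicate 1, which was 10.9% and 11.2% of the TPM of the 3 genes. The level of Loxl1 exceeded that of Lox by 1.86 in replicate 2 and 1.91 in replicate 1 on the log2 scale, a spread that was small beside the difference. Loxl2 and Loxl1 overlapped in range.

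The adhesive and matricellular glycoproteins held the largest part of the members' TPM, 43.4% in replicate 2 and 41.8% in replicate 1, and Sparc alone held 54.6% and 55.2% of the group in those libraries. Sparc, a glycoprotein that binds calcium and collagen and is needed for collagen deposition, had 517 TPM in replicate 2 and 731 TPM in replicate 1. By mean TPM it ranked 62 of 22015 protein-coding genes outside the mitochondrial genome. Its relative Sparcl1 had 123 TPM in replicate 2 and 155 TPM in replicate 1, and its level over Sparc was -2.07 in replicate 2 and -2.23 in replicate 1 on the log2 scale. Postn had 137 TPM in replicate 2 and 214 TPM in replicate 1. Fn1, which encodes fibronectin, the scaffold on which much of the matrix is assembled, had 106 TPM in replicate 2 and 143 TPM in replicate 1. Vtn, the adhesive glycoprotein vitronectin made mainly by liver, had 8.23 TPM in replicate 2 and 9.79 TPM in replicate 1, while the liver genes Alb and Ahsg stood at 0.11 and 2.57 TPM in replicate 2 and 0.20 and 3.89 TPM in replicate 1.

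The thrombospondins and tenascins were lower. Thbs1, whose product activates latent TGF-beta, had 17.5 TPM in replicate 2 and 15.5 TPM in replicate 1, and Thbs2 had 16.6 TPM in replicate 2 and 22.7 TPM in replicate 1. Which of the pair was higher differed between the libraries: the level of Thbs1 over Thbs2 was 0.08 in replicate 2 and -0.55 in replicate 1 on the log2 scale. Tnxb, a tenascin of mature connective tissue, had 18.8 TPM in replicate 2 and 27.8 TPM in replicate 1, and Tnc, the tenascin of embryonic and injured tissue, had 2.53 TPM on 567 counts in replicate 2 and 5.75 TPM on 1196 counts in replicate 1. The level of Tnxb exceeded that of Tnc by 2.85 in replicate 2 and 2.25 in replicate 1 on the log2 scale.

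Of the small leucine-rich proteoglycans, Dcn and Bgn were the highest and Prelp and Fmod the lowest. Dcn (decorin, which binds collagen and TGF-beta) had 139 TPM in replicate 2 and 207 TPM in replicate 1, and its close relative Bgn (biglycan) had 83.9 TPM in replicate 2 and 129 TPM in replicate 1. Lum (lumican), Ogn (osteoglycin), Prelp and Fmod (fibromodulin) had 38.4, 25.5, 7.69 and 4.93 TPM in replicate 2 and 57.3, 31.5, 11.4 and 7.57 TPM in replicate 1. The level of Lum exceeded that of Fmod, its class mate, by 2.94 in replicate 2 and 2.90 in replicate 1 on the log2 scale, whereas Dcn exceeded Bgn by 0.73 and 0.68, less than 2-fold. The shares of the 6 genes within their group were close in the 2 libraries, with Dcn at 46.4% in replicate 2 and 46.6% in replicate 1.

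These proteoglycan genes lie in clusters, and neighbours in a cluster had very different levels. On chromosome 10, where Dcn lies at 97479609-97518143 and Lum at 97565128-97572703 of mm10, the neighbours Kera (keratocan, of the cornea) and Epyc (of cartilage) had 0.03 and 0.10 TPM in replicate 2 and 0.02 and 0.12 TPM in replicate 1. On chromosome 13, Omd (osteomodulin, of bone), the gene next to Ogn, had 0.45 TPM in replicate 2 and 0.58 TPM in replicate 1. Beyond Omd in the same cluster, Aspn (asporin) had 35.2 TPM in replicate 2 and 47.4 TPM in replicate 1, and Ecm2 had 7.29 and 8.61 TPM in those libraries. On chromosome 1, in the cluster of Prelp and Fmod, Optc (opticin, of the eye) had 0.04 TPM on 2 counts in replicate 2 and 0.28 TPM on 13 counts in replicate 1. A count of 3, the limit that a count of 0 allows, lies above the Kera count in both libraries and the Optc count in replicate 2, so those genes were not detected at this depth there.

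**Figure D2:**
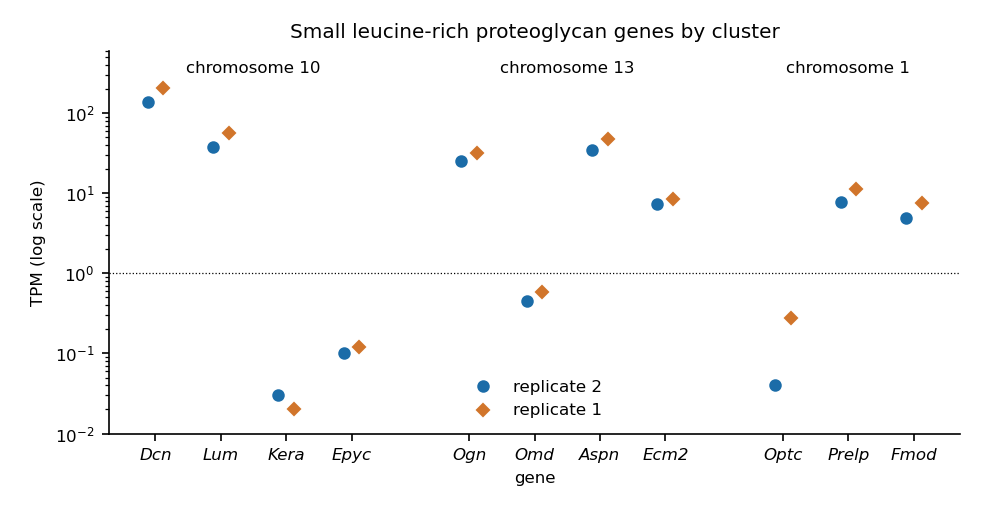
TPM on a log scale of the small leucine-rich proteoglycan genes in their clusters on chromosomes 10, 13 and 1, with a circle for replicate 2 and a diamond for replicate 1; the dotted line marks 1 TPM. In each cluster genes between 4.93 and 207 TPM stand beside at least 1 gene under 0.6 TPM.

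Dpt (dermatopontin), a small protein that binds decorin and speeds collagen fibril formation, had 67.1 TPM in replicate 2 and 103 TPM in replicate 1. Vcan (versican), the large hyaluronan-binding proteoglycan of the developing heart, had 14.4 TPM in replicate 2 and 22.2 TPM in replicate 1. Hapln1, the link protein that ties versican to hyaluronan in heart cushions and valves, had 0.16 TPM on 28 counts in replicate 2 and 0.50 TPM on 39 counts in replicate 1. The counts of Hapln1 differed less than its TPM. Its TPM in replicate 1 included 0.29 TPM on 3.15 counts assigned to a short transcript with a retained intron, Hapln1-202, and the coding transcript Hapln1-201 had 0.16 TPM in replicate 2 and 0.21 TPM in replicate 1.

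In the basement membrane group, Hspg2 (perlecan) was the highest. Hspg2 had 201 TPM in replicate 2 and 219 TPM in replicate 1, on 74474 and 77138 counts, the most counts of any member. The other heparan sulfate proteoglycan, Agrn (agrin, known for its part in growth of the newborn mouse heart), had 34.3 TPM in replicate 2 and 38.5 TPM in replicate 1. Nid1 and Nid2, the nidogens that join laminin to collagen IV, had 66.6 and 33.9 TPM in replicate 2 and 89.95 and 45.5 TPM in replicate 1. The level of Nid1 over Nid2 was 0.97 in replicate 2 and 0.98 in replicate 1 on the log2 scale, just short of 2-fold, and the level of Hspg2 over Agrn was 2.55 and 2.51. Over the 14 pairs examined, 8 differed over 2-fold in level in both libraries and in the same direction. Some pairs were set by role and not by family: Mfap4 with Mfap5, and, among the 8, Vcan with Hapln1 and Fn1 with Vtn.

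The ratio between the libraries was lower in replicate 2 for most of these genes. For this the expected counts were scaled by TMM, which sets the bulk of all genes equal. A ratio can thus differ from that of the TPM values, which are shares of each library's whole RNA. TPM was lower in replicate 2 for 35 of the 36 genes. The share of all genes with lower TPM was not counted, so that number cannot be read as particular to the members. Protein-coding genes outside the mitochondrial genome took 64.7% of all counts in replicate 2 and 67.4% in replicate 1. The scaled ratio was lower in replicate 2 for 31 of the 35 members whose mean count reached 50. Of all 13213 genes with such a count, 48.7% were lower by any amount. The members' median log2 ratio, replicate 2 over replicate 1, was -0.34 and their range was -1.02 to 0.36, beside a median of 0.01 and quartiles of -0.13 and 0.15 over all genes. An exact 95% interval covering counting error only lay wholly below no difference for 28 members, where 20.5% of all genes did so, and wholly above it for 3, where 22.3% of all genes did so. Such an interval is narrower for genes with more counts, and the members and all genes were not matched for counts. A ratio over 1.5-fold lower, with such an interval, was found for 4 members, 11.4% of the 35, where 3.14% of all genes did so, and over 1.5-fold higher for 0, where 3.13% of all genes did so. The count lower was 6 with DESeq2 size factors, the protein-coding total or the other quantification (3.47%, 3.91% and 3.41% of all genes). It was 7 with total count or ERCC scaling (4.78% and 4.23% of all genes). These counts come from 1 library on each side, with no tool that tests across animals and no p-value. In bulk tissue, fewer cells of a type and less RNA per cell cannot be told apart.

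The 4 members over 1.5-fold lower in replicate 2 were Efemp1, Tnc, Eln and Fbln1. The log2 ratio was -1.02 for Efemp1 (95% interval -1.33 to -0.73), the widest interval of the 4 because it had the fewest counts. It was -0.93 for Tnc (-1.08 to -0.79), -0.81 for Eln (-0.83 to -0.78) and -0.62 for Fbln1 (-0.72 to -0.53). Mfap4 at -0.58 and Loxl1 at -0.57 lay just inside 1.5-fold. The members with an interval above no difference were Thbs1 at 0.36 (0.29 to 0.44), Fbn2 at 0.16 (0.08 to 0.24) and Hspg2 at 0.09 (0.08 to 0.11). The sign for Hspg2 depended on the scaling, since scaling by total count alone shifted the median of all genes by -0.11 and gave -0.02 for Hspg2. Agrn was 0.02 with TMM, with an interval that held no difference under that scaling, and -0.09 with total count. Thbs1 and Fbn2 were higher in replicate 2 under all 5 scalings.

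**Figure D3:**
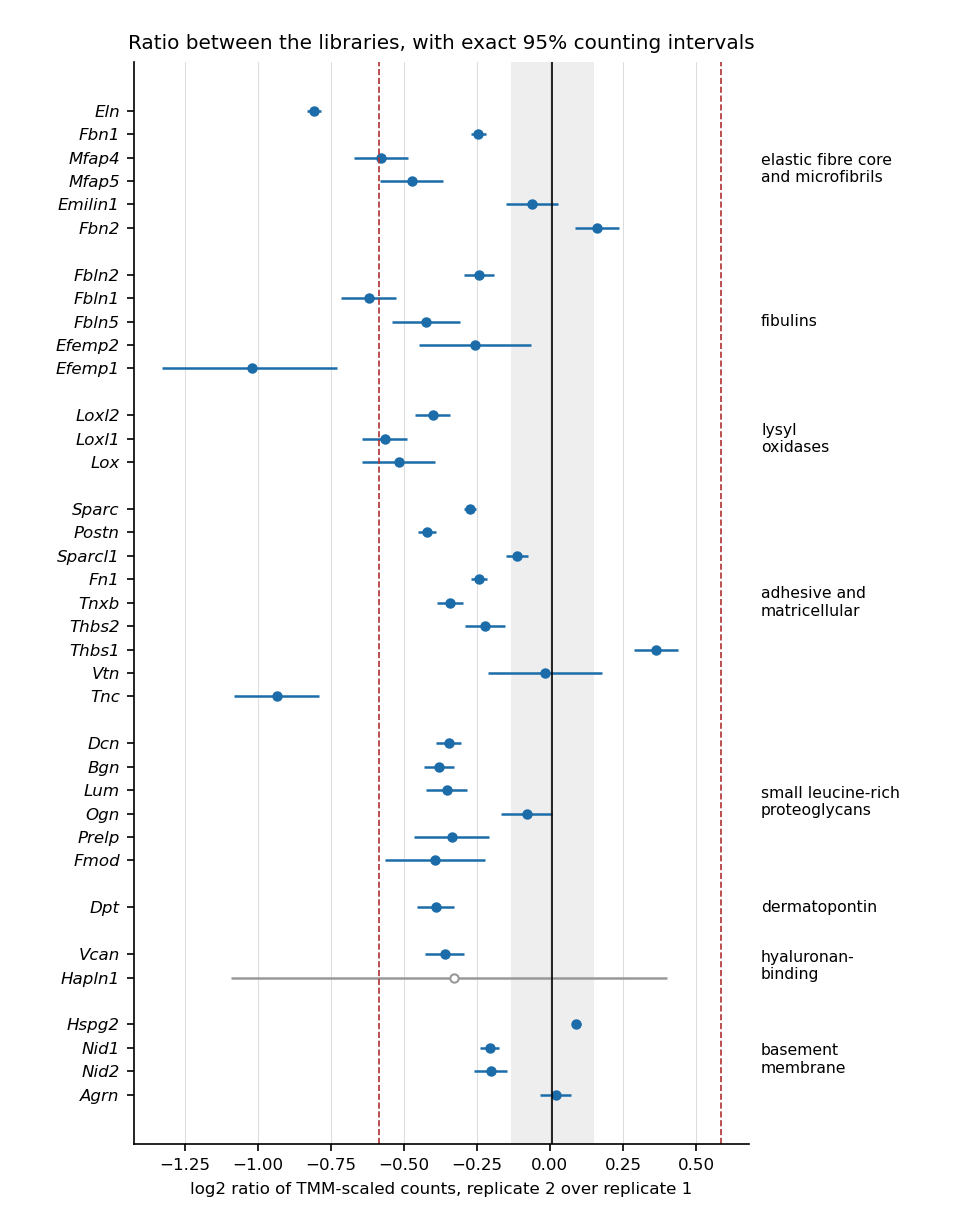
Log2 ratio of TMM-scaled counts, replicate 2 over replicate 1, for each gene by role, with bars for exact 95% intervals from counting error; the black line and grey band are the median and quartiles of all 13213 genes, dashed lines mark 1.5-fold, and the open grey point is Hapln1, below the count minimum. The points of Efemp1, Tnc, Eln and Fbln1 lie left of the 1.5-fold line, and none lies right of the other.

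Among the members by role, the ratio was lower in replicate 2 for 5 of 5 fibulins (median -0.43) and 3 of 3 lysyl oxidases (median -0.52). So it was for 6 of 6 small leucine-rich proteoglycans (median -0.35) and 5 of 6 elastic fibre core and microfibril genes (median -0.36). It was lower for 8 of 9 adhesive and matricellular genes (median -0.24), and Dpt and Vcan had -0.39 and -0.36. In the basement membrane group it was lower for 2 of 4 (median -0.09), with Nid1 at -0.21 and Nid2 at -0.20 beside Hspg2 and Agrn near 0. Emilin1 at -0.06, Vtn at -0.02 and Ogn at -0.08 had intervals that held no difference.

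Markers of several cell types were also lower in replicate 2. Fibroblast markers were lower in replicate 2 for 7 of 8 genes (median -0.36), with Col1a1 at -0.54, Pdgfra at -0.20 and Tcf21 at 0.06. Their summed level was 1050 TPM in replicate 2 and 1667 TPM in replicate 1. This list holds matrix genes itself, the collagens Col1a1, Col1a2 and Col3a1, so it is not separate from the matrix. Smooth muscle markers were lower for 5 of 5 (median -0.63), with Tagln at -0.72 and a summed level of 268 TPM in replicate 2 and 398 TPM in replicate 1. Epicardial and mesothelial markers were lower for 8 of 9 (median -0.79), with Krt19 at -1.19, Wt1 at 0.06 and a summed level of 33.9 TPM in replicate 2 and 58.3 TPM in replicate 1. Macrophage markers were lower for 6 of 6 (median -0.46) and summed to 29.7 TPM in replicate 2 and 49.3 TPM in replicate 1.

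Atrial muscle, adipocyte and Schwann cell markers had lower medians than these. The median log2 ratio was -2.00 for 6 atrial muscle markers (Nr2f2 at -0.02 among them), -4.90 for the 6 of 8 adipocyte markers with enough counts and -1.68 for the 5 of 6 Schwann cell markers with enough counts. The Schwann cell markers summed to 3.54 TPM in replicate 2 and 19.5 TPM in replicate 1. Pericyte markers (median 0.06, 2 of 5 lower), endothelial markers (median -0.05, 5 of 6 lower) and ventricular muscle markers (median 0.20, 1 of 5 lower) had medians near 0 or above it, and summed to 288, 303 and 12806 TPM in replicate 2 and 319, 373 and 13325 TPM in replicate 1. Valve markers, a list that holds Hapln1, had a median of -0.04 with 3 of 5 lower, and summed to 20.2 TPM in replicate 2 and 22.3 TPM in replicate 1. Cartilage markers summed to 1.62 TPM in replicate 2 and 2.83 TPM in replicate 1, with 2 of 2 lower and Matn1 at a count of 0 in both, and liver and plasma protein genes summed to 3.09 and 4.92 TPM in those libraries, with Serpina1a at 0 in both. Most of that liver sum was Ahsg, which had 2.57 TPM on 111 counts in replicate 2 and 3.89 TPM on 156 counts in replicate 1. The part of these markers' cell types in the members' ratios was not tested.

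**Figure D4:**
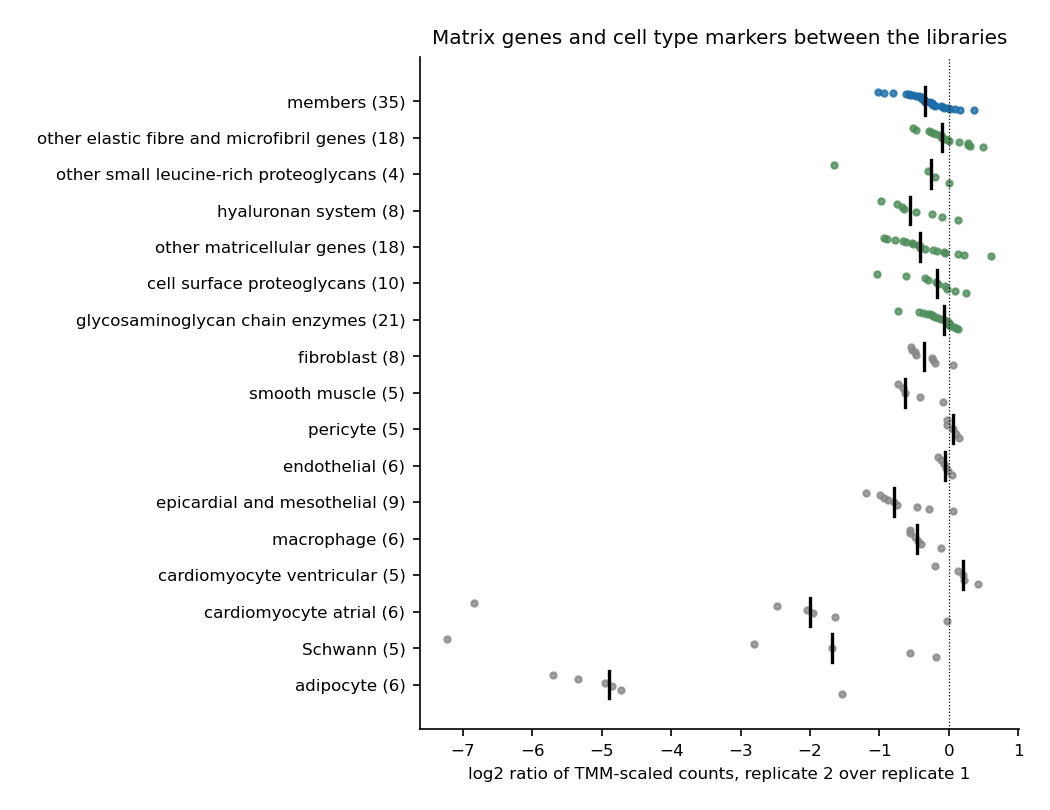
Log2 ratio of TMM-scaled counts, replicate 2 over replicate 1, with 1 point a gene, for the 35 members (blue), lists of other matrix genes (green) and cell type markers (grey); numbers in brackets are genes with a mean count of at least 50, black bars are medians and the dotted line is the median of all genes. The members' bar at -0.34 lies near the fibroblast bar at -0.36, a list that holds collagen genes. The bars of other matricellular genes at -0.42 and macrophage markers at -0.46 are also close. The smooth muscle bar at -0.63 and the pericyte bar at 0.06 lie on either side.

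The rest of the matrix was taken from 6 lists of 101 other genes, of which 70 had at least 1 TPM in both libraries and 79 had enough counts for a ratio. Of these 79, 59 (74.7%) were lower in replicate 2, where 48.7% of all genes were, and the median log2 ratio was -0.18. Over 1.5-fold lower were 13, or 16.5%, a larger share than the 11.4% of members, beside 3.14% of all genes. Over 1.5-fold higher was 1, where 3.13% of all genes were. The other elastic fibre and microfibril genes were lower for 13 of 18 with a median of -0.10 and none over 1.5-fold. The highest of them were Ltbp4, the latent TGF-beta binding protein of elastic fibres, with 115 TPM in replicate 2 and 164 TPM in replicate 1, Emilin2 with 60.6 and 77.1 TPM and Ltbp3 with 24.2 and 33.1 TPM in those libraries. Of the other small leucine-rich proteoglycans, 3 of 4 were lower (median -0.25), led in level by Aspn, Ecm2 and Podn. Podn (podocan) had 2.71 TPM on 245 counts in replicate 2 and 10.1 TPM on 855 counts in replicate 1, a log2 ratio of -1.66 that lay beyond that of every member.

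The hyaluronan genes were low apart from Hyal2, a hyaluronidase, with 19.5 TPM in replicate 2 and 19.6 TPM in replicate 1. Next came the hyaluronan receptors Cd44, with 4.90 TPM in replicate 2 and 8.28 TPM in replicate 1, and Lyve1, of lymphatic vessels and macrophages, with 3.47 and 7.91 TPM in those libraries. The synthases Has1, Has2 and Has3 were under 1 TPM, with 0.07, 0.29 and 0.62 TPM in replicate 2 and 0.32, 0.54 and 0.81 TPM in replicate 1. Of the 8 hyaluronan genes with enough counts, 7 were lower in replicate 2 (median -0.56) and 4 over 1.5-fold. Among the other matricellular genes, 15 of 18 were lower (median -0.42), 5 over 1.5-fold, and Tnr was over 1.5-fold higher at 0.61 on 82 counts in replicate 2 and 59 in replicate 1. The highest of them were Igfbp7, with 125 TPM in replicate 2 and 195 TPM in replicate 1, Mgp, an inhibitor of calcification, with 116 and 159 TPM, and Ccn2 with 42.8 and 40.9 TPM in those libraries.

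Cell surface proteoglycans were lower for 8 of 10 (median -0.17) and 2 were over 1.5-fold lower. The highest was the glypican Gpc1, with 66.8 TPM in replicate 2 and 70.4 TPM in replicate 1, followed by the syndecan Sdc3, with 21.3 and 26.8 TPM, and Tgfbr3 (betaglycan), with 22.9 and 21.7 TPM in those libraries. The enzymes that build glycosaminoglycan chains were lower for 13 of 21 (median -0.07) and 1 was over 1.5-fold lower. The highest were Ndst1, with 37.97 TPM in replicate 2 and 47.3 TPM in replicate 1, Extl3 with 24.6 and 25.8 TPM, and Ext2 with 18.2 and 24.2 TPM in those libraries, all of heparan sulfate synthesis.

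Transcripts were read from the same quantification as the genes and from the other deposited one, which was made directly from reads. The highest transcript of a member was the same in both libraries for 34 of 36, the exceptions being Fn1 and Hapln1. It was the same in both quantifications and libraries for 30 of 36, the others being Fn1, Hapln1, Hspg2, Mfap4, Postn and Sparc. It held at least 50% of the gene's TPM in both libraries for 31 members and less for Fbln2, Fn1, Hspg2, Postn and Vcan. For Sparc, transcript Sparc-202 led the first quantification with 68.2% in replicate 2 and 69.3% in replicate 1, and Sparc-201 led the other with 58.5% and 57.9%. For Hspg2 the near-equal transcripts Hspg2-203 and Hspg2-201 held 43.1% and 38.01% in replicate 2 and 42.1% and 39.7% in replicate 1. For Mfap4 the coding transcript Mfap4-202 held 75.4% in replicate 2 and 82.1% in replicate 1, while the other quantification gave 86.9% and 89.5% to the processed transcript Mfap4-203, so the coding share of Mfap4 could not be set from these files.

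Transcripts annotated as coding held a median of 98.5% of a member's TPM in replicate 2 and 98.8% in replicate 1, and less than 80% in both libraries for Agrn, Eln, Emilin1 and Fbln2. In the other quantification the genes under 80% in both libraries were Eln, Emilin1, Fn1 and Mfap4, with Fbln2 at 94.5% in replicate 2 and 83.0% in replicate 1, Agrn at 83.2% and 92.4%, and Fn1 at 71.5% and 71.6%. For Eln the coding transcript Eln-201 held 70.0% in replicate 2 and 72.0% in replicate 1, and Eln-203, annotated as a target of nonsense-mediated decay, held 26.7% and 25.7%. The other quantification gave Eln-203 14.2% in replicate 2 and 13.5% in replicate 1 and gave 16.7% and 17.7% to the intron-retaining Eln-204. The retained-intron transcript Agrn-205 held 35.6% of Agrn in replicate 2 and 31.6% in replicate 1, against 11.6% and 2.68% in the other quantification. Fbln1, a gene with 2 coding forms, was mostly Fbln1-202, at 80.3% in replicate 2 and 82.4% in replicate 1.

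Several members were mixtures of full-length coding forms that differ by whole exons. In Postn, exon 17 was in 39.7% of the TPM of full-length coding transcripts in replicate 2 and 35.96% in replicate 1, and exon 21 in 33.8% and 29.0%. The other quantification gave like shares, 39.4% in replicate 2 and 34.5% in replicate 1 for exon 17, and 34.5% and 29.5% for exon 21. How the exons combined was not settled: the form with both, Postn-202, had 0% in the first quantification and 14.3% in replicate 2 and 17.8% in replicate 1 in the other. The form with neither, Postn-204, had 26.6% in replicate 2 and 35.0% in replicate 1 in the first quantification and 40.4% and 53.8% in the other, so it was the lower in replicate 2 in both.

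In Fn1, the exon known as EDA, of 270 bases at chr1:71603660-71603929 on the minus strand, was in 38.8% of full-length TPM in replicate 2 and 37.5% in replicate 1. The exon known as EDB, of 273 bases at chr1:71613763-71614035, was in 35.7% in replicate 2 and 35.1% in replicate 1. The other quantification gave 36.9% and 36.4% for EDA and 32.4% and 31.5% for EDB in those libraries. These exons mark the fibronectin made by cells in tissue, as against the plasma form made by liver. The highest transcript of all for Fn1 was the full-length Fn1-201 in replicate 2 (23.1%) and the short Fn1-208 of 1350 bases in replicate 1 (24.7%).

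In Vcan, whose large exons carry the sites for chondroitin sulfate chains, the exon of 5217 bases (GAG-beta) at chr13:89688285-89693501 on the minus strand was in 74.0% of full-length TPM in replicate 2 and 77.4% in replicate 1. The exon of 2880 bases (GAG-alpha) at chr13:89702918-89705797 was in 32.4% in replicate 2 and 31.7% in replicate 1. The form with GAG-beta alone (V1, Vcan-206) held 41.7% in replicate 2 and 45.7% in replicate 1, the form with both (V0, Vcan-203) 32.4% and 31.7%, and the form with neither (V3, Vcan-201) 26.0% and 22.6%. The form with GAG-alpha alone (V2, Vcan-202), known from brain, was listed at 0 in both libraries and in both quantifications. The V3 share depended on the quantification, being 5.99% in replicate 2 and 4.98% in replicate 1 in the other.

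**Figure D5:**
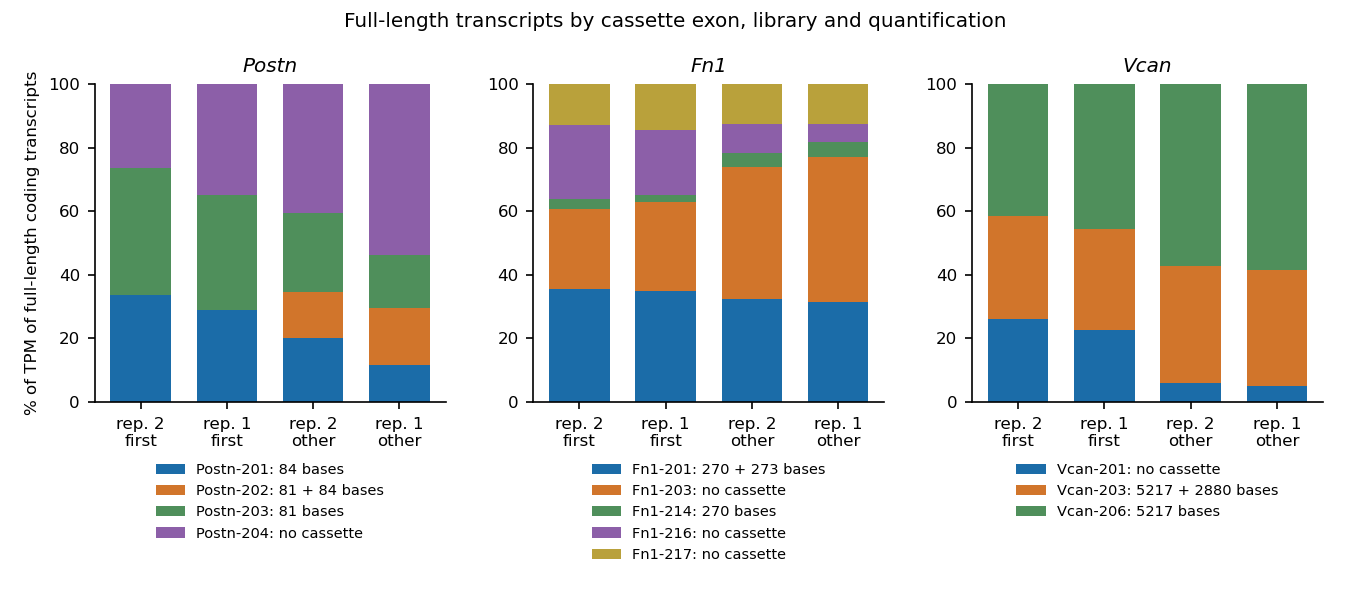
Share of the TPM of full-length coding transcripts of Postn, Fn1 and Vcan held by each transcript, in percent, for replicate 2 and replicate 1 in the first and the other deposited quantification; legends give the lengths of the cassette exons a transcript holds, and transcripts under 1% in every bar are left out. The exon shares are alike in the 2 libraries, while Postn-202 is present only in the other quantification's bars.

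In Tnc, an exon of 273 bases was in 32.5% of full-length TPM in replicate 2 and 22.2% in replicate 1, on 185 and 264 counts of the transcript Tnc-203 that holds it. In Fbln2, an exon of 141 bases was in 37.6% in replicate 2 and 40.8% in replicate 1. The other quantification gave 30.0% and 24.5% for Tnc and 36.5% and 40.7% for Fbln2 in those libraries.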

How the data were processed

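Gene and transcript tables of 2 heart libraries were used. The deposited files were made by the authors on mm10 with GENCODE M21, per the file headers and notes; program names, versions and strand settings are not given in the sources used here. In them, the authors' tables hold expected counts (estimated counts in the other quantification), TPM scaled to all rows of a file, and FPKM, used as an alternative; a deposited percent of each gene's abundance per transcript was not used, since shares were recomputed from TPM. The reference is that of B6, so CAST reads that differ from it could be missed in both libraries.

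The 36 symbols were matched to GENCODE M21. The 96 ERCC rows, the phiX row and 26248 rows that name no gene (3 counts in replicate 2, 3.89 in replicate 1) were left out of library sizes. The members, lists and alternatives were chosen with earlier results of these data known. All members are described, and those leading a role group or over 1.5-fold get full values. Of other lists, cluster neighbours, the 3 highest genes and markers needed beside a result are named. Further ones named after their values were seen were Has1 to Has3, Tnr, Alb, Ahsg, Nr2f2, Col1a1, Col1a2, Col3a1, Pdgfra and Tcf21. Tagln, Krt19, Wt1, Matn1, Serpina1a, Myl2, Loxl3, Loxl4 and Fbln7 were also named in that way.

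Expected counts were rounded, scaled by edgeR 4.0.16 TMM factors in R 4.3.3, and 0.5 was added before the log2 ratio, replicate 2 over replicate 1. Exact 95% Clopper-Pearson intervals came from the counts with SciPy 1.17.1; they and the floor of 3 counts (0.0791 CPM in replicate 2, 0.0772 CPM in replicate 1) cover counting error only. Ratios needed a mean count of at least 50. The steps were tested on simulated counts with known fold changes. edgeR's biological coefficient of variation between the libraries was 0.147. DESeq2 1.42.0 size factors were an alternative scaling. Full-length coding transcripts were those of at least 2500 (Postn), 7000 (Fn1), 2300 (Vcan), 6500 (Tnc) and 4000 (Fbln2) bases. Counts were whole (within 0.005) for 33 members; those of Tnxb, Loxl2 and Nid1 were not. An annotated gene on the opposite strand overlapped 19 members.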

Additional observations from a re-analysis of the deposited data

How the results depend on the processing

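With 2 libraries, replicate spread and not counting limits these values. Across DESeq2 size factors, total count, protein-coding total and ERCC scalings, the other quantification, other count minimums and a pseudocount of 5, 31 to 33 members were lower in replicate 2, 31 or 32 lay below the median of all genes, and the members' median stayed between -0.45 and -0.34. Of all genes, 48.0% to 69.1% were lower in replicate 2 over those settings. Members over 1.5-fold lower numbered 4 with TMM and 7 with total count or ERCC scaling (with Mfap4, Lox and Loxl1). The shares of all genes were 3.14% with TMM, 4.78% with total count and 4.23% with ERCC scaling. The threshold itself gave 1 lower at 2-fold, where 0.984% of all genes were so. A threshold below 1.5-fold gave 19 lower, where 8.08% of all genes were so, and 1 (Thbs1) higher. The share of all genes higher was not counted at these thresholds. An alternative chosen after seeing the data left out members that overlap a gene on the opposite strand. Then 15 of 17 were lower and 2 over 1.5-fold, with fewer members by construction. Of all genes, not filtered for overlap, 48.7% were lower and 3.14% over 1.5-fold lower. TPM rescaled to protein-coding genes outside the mitochondrial genome raised the summed level to 6599 and the median to 77.5, by its smaller denominator. The rescaled sum was 5821 in replicate 2 and 7376 in replicate 1, a smaller ratio between the libraries than before rescaling. In the other quantification 12 of 36 member levels moved by more than the spread between the libraries. The adhesive and matricellular share was 45.5% in the other quantification, and the cause was not tested. Without one replicate the summed level was 2181 to 3171 TPM, the median 25.5 to 37.3 TPM, the share 41.8% to 43.4%, members detected 35 either way and pairs over 2-fold 8 to 9. Agrn turned to -0.003 with DESeq2 size factors and -0.009 in the other quantification; the level of Mfap4 over Mfap5 was 0.21 and turned to -0.44 in the other quantification. No paired analysis was possible because there was 1 group.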

Other observations

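Most of the 19 members that overlap a gene on the opposite strand had few counts on that gene, and the exceptions were Nid2, Efemp2, Mfap4 and Ogn. Rtraf, which overlaps Nid2, had 1181 counts in replicate 2 and 1390 in replicate 1. Mus81, which overlaps Efemp2, had 413 counts in replicate 2 and 416 in replicate 1, about as many as Efemp2 itself with 397 and 523. Mapk7, which overlaps Mfap4, had 377 and 401 counts, and Cenpp, which overlaps Ogn, had 101 and 94. The levels of these 4 members are therefore uncertain where reads of the overlap were assigned without strand.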
